A study of Mus musculus with 36 samples.

Results

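The genes described here make nitric oxide or share its substrate, the amino acid arginine. They form a list of names with no threshold on values, drawn up with earlier results of these data known: Nos2, Gch1, Arg1, Arg2, Ass1, Asl, Slc7a1, Slc7a2 and Odc1. They are 9 of the 43472 gene symbols in the count table, and all 9 were found in it. RNA was measured in primary WT enteric glial cells (EGCs), the glia of the gut's own nervous system. The cells were grown as neurospheres from whole intestines of C57BL/6J embryos and then differentiated, so that they stand in for EGCs of the adult gut only as a culture model. EGCs were left unstimulated or were given a medium conditioned by healthy tissue (H-CM) or by the tumor microenvironment (TME-CM). These media had been kept overnight on cells from digested healthy colons, or from digested tumors that MC38 cells, a mouse colon adenocarcinoma line, had formed in the colon wall. RNA was taken after 6 h, 12 h or 24 h, which gives 9 groups of 4 libraries and 36 libraries in all. The labels number the libraries of a group from 1 to 4 but do not say whether they are separate cultures or animals, so the p-values measure the spread between these libraries, which may be technical.

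Inducible nitric oxide synthase, encoded by Nos2, turns arginine into nitric oxide and citrulline. It is best known from macrophages and astrocytes exposed to inflammatory signals, and it needs the cofactor tetrahydrobiopterin, whose synthesis starts with the enzyme encoded by Gch1. Cationic amino acid transporters (Slc7a1, Slc7a2) bring arginine into the cell, and the enzymes of Ass1 and Asl rebuild it from citrulline. Arginases (Arg1 in the cytosol, Arg2 in mitochondria) split it into ornithine and urea, and the enzyme of Odc1 turns ornithine into putrescine, the first polyamine.

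The bases just before the start of Gch1, which rose with TME-CM at 12 h and 24 h, and of Slc7a1, which was not called higher at any time, are shown because these genes serve the same enzyme, with its cofactor and its substrate. Both windows are from RefSeq (build GRCm38.p6, the assembly also called mm10), read 5′ to 3′ on the strand of the gene, and end at the base before its start. RefSeq windows were found for 4 of the 9 genes (Gch1, Slc7a1, Ass1 and Odc1). Slc7a1 has 2 of them, and the one printed is that of the start named with the gene's position. Capitals mark matches to 6 motifs: the kappaB motif, the E-box with the letters CACGTG, the TATA box with TATAAA, the CCAAT box, the core TGACG of the cyclic AMP response element and the amino acid response element with TGATGNAAT. All but the TATA box were searched on both strands, and no marked matches overlap.
Gch1, chr14:47189414-47189663, minus strand: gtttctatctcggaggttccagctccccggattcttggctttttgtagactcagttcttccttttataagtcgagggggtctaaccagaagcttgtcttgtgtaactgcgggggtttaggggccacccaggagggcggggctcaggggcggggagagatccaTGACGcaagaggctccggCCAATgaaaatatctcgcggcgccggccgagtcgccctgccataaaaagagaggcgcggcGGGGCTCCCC
Slc7a1, chr5:148399905-148400154, minus strand: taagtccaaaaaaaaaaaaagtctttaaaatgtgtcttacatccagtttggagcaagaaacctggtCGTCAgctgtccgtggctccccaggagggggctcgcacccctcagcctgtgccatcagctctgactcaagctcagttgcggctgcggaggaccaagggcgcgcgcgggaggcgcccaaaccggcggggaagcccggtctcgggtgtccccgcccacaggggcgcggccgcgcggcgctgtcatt
In the window of Gch1, the kappaB match begins 10 bases, the CCAAT box 70 bases and the match of the cyclic AMP response element 88 bases before the start. In the window of Slc7a1, the marked letters are a match of that element on the other strand, 184 bases before the start. The other window of Slc7a1 (chr5:148392816-148393065) holds a TATA box 28 bases before its own start. The window of Odc1, which was also called higher with TME-CM at 12 h and 24 h, holds no kappaB match. Its only match is the core of the cyclic AMP response element, 79 bases before the RefSeq start. The window of Ass1, which was not called, holds only an E-box, 36 bases before the RefSeq start. The windows of Odc1 (chr12:17544623-17544872) and Ass1 (chr2:31470020-31470269) end inside the gene positions given below, which are from GENCODE. Both matches thus lie within those positions and not before them. Among all 32851 RefSeq windows of these 250 bases, 5% held the kappaB motif, 33.8% the CCAAT box and 17.8% the core of the cyclic AMP response element, while 6.02% held the E-box, 7.59% the TATA box and 0.816% the amino acid response element. A match describes letters and does not show that a factor binds there.

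Total counts ranged from 13518 to 5244763 per library at 6 h (median 1526580), from 2005239 to 5961933 at 12 h (median 4090589) and from 1608018 to 7552509 at 24 h, so that the values of 6 h are the least precise. In the library with 13518 counts, H-CM replicate 4 of 6 h, a single count of Slc7a1 came to 32.7 CPM (counts per 1e6 of the scaled library size). CPM values are given per library in the order of the replicate numbers, or as mean ± SD with n = 4 libraries. The reads come from the 3′ ends of transcripts, and CPM values are compared between groups and not between genes. All 9 listed markers of enteric glia were detected in each of the 9 groups, and 0 of them were called different between any groups of the same time. Markers of other cells were present as well. Of 12 macrophage and monocyte markers, 11 or 12 were detected in each group, with summed levels between 32.7 and 459 CPM per library, and 0 were called in any comparison. Of 6 smooth muscle markers, 4 were lower in TME-CM than in H-CM at 24 h, and of 4 fibroblast markers 3 were higher. In such bulk samples, a change in the number of cells of a type and a change in the RNA per cell cannot be told apart.

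Nos2 (ENSMUSG00000020826.8, chr11:78920787-78960254, plus strand) was at or near 0 without TME-CM and was high after it at 12 h and 24 h. At 12 h, the 4 TME-CM libraries held 45.7, 37.3, 57.6 and 117 CPM, from 90 to 448 counts. In H-CM, the values were 1.93, 0.717, 0.238 and 0.148 CPM, and in unstimulated EGCs they were 1.58, 0, 0 and 0 CPM. All 4 TME-CM libraries lay above all others of 12 h. At 24 h, TME-CM libraries held 56.4, 18.3, 45.9 and 54.8 CPM, with replicate 2 the lowest. H-CM libraries held 2.49, 0.366, 0.123 and 0 CPM, and of the unstimulated libraries replicate 3 alone held Nos2, with 1 count. Again the TME-CM libraries did not overlap with the others.

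Nos2 rose with TME-CM relative to H-CM by 6.53 ± 0.65 at 12 h (log2 fold change ± SE, adjusted p = 2.31e-05) and by 5.88 ± 0.57 at 24 h (adjusted p = 7.43e-06), which are folds of 92.3 and 58.7. These sizes depend on single H-CM libraries: without replicate 1 the log2 fold change was 7.36 at 12 h and 7.66 at 24 h, and without replicate 3 it was 5.29 at 24 h. Against unstimulated EGCs, the counts are too few for a fold with a useful upper bound. Pooled over the libraries, the ratio was 329 at 12 h (95% interval 112 to 1597, from 1034 against 3 counts) and 1080 at 24 h (193 to 42711, from 978 against 1 count), with intervals that cover counting error only. Without unstimulated replicate 4 the first ratio was 172, and without unstimulated replicate 3, which held the single count, the second was at least 259.7 (0 counts taken as 3). No test was run on these ratios. The edgeR tests of the same comparisons gave adjusted p of 3.56e-06 at 12 h and 3.26e-07 at 24 h. Their log2 fold changes, 8.07 and 9.34, rest on the same few counts. Nos2 in H-CM EGCs was not called against unstimulated EGCs at 24 h (log2 fold change 3.46 ± 1.40, adjusted p = 0.342), and 11 of its 14 counts in H-CM were from replicate 1. It was called there when genes of low counts were not filtered out (adjusted p = 0.00819).

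At 6 h, Nos2 was already present in part of the TME-CM libraries. The values were 0, 0.836, 5.27 and 13.1 CPM, from 0, 1, 15 and 70 counts, so that replicates 3 and 4 were high and replicates 1 and 2 were not. H-CM held 2 counts and the unstimulated EGCs 2 counts over 4 libraries each. The groups overlapped, and a two-sided exact permutation test gave p = 0.257 for TME-CM against H-CM. Nos2 was too low at 6 h for the test across genes. In order of the mean, the levels of Nos2 ran from 64.5 ± 36.2 CPM in TME-CM at 12 h over 43.9 ± 17.6 CPM at 24 h to 4.80 ± 5.99 CPM at 6 h. The first 2 did not differ beyond their spread (24 h against 12 h, log2 fold change -0.67 ± 0.47, adjusted p = 0.818). The 6 groups without TME-CM had means between 0.0401 and 0.757 CPM, and their libraries overlapped.

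**Figure D1:**
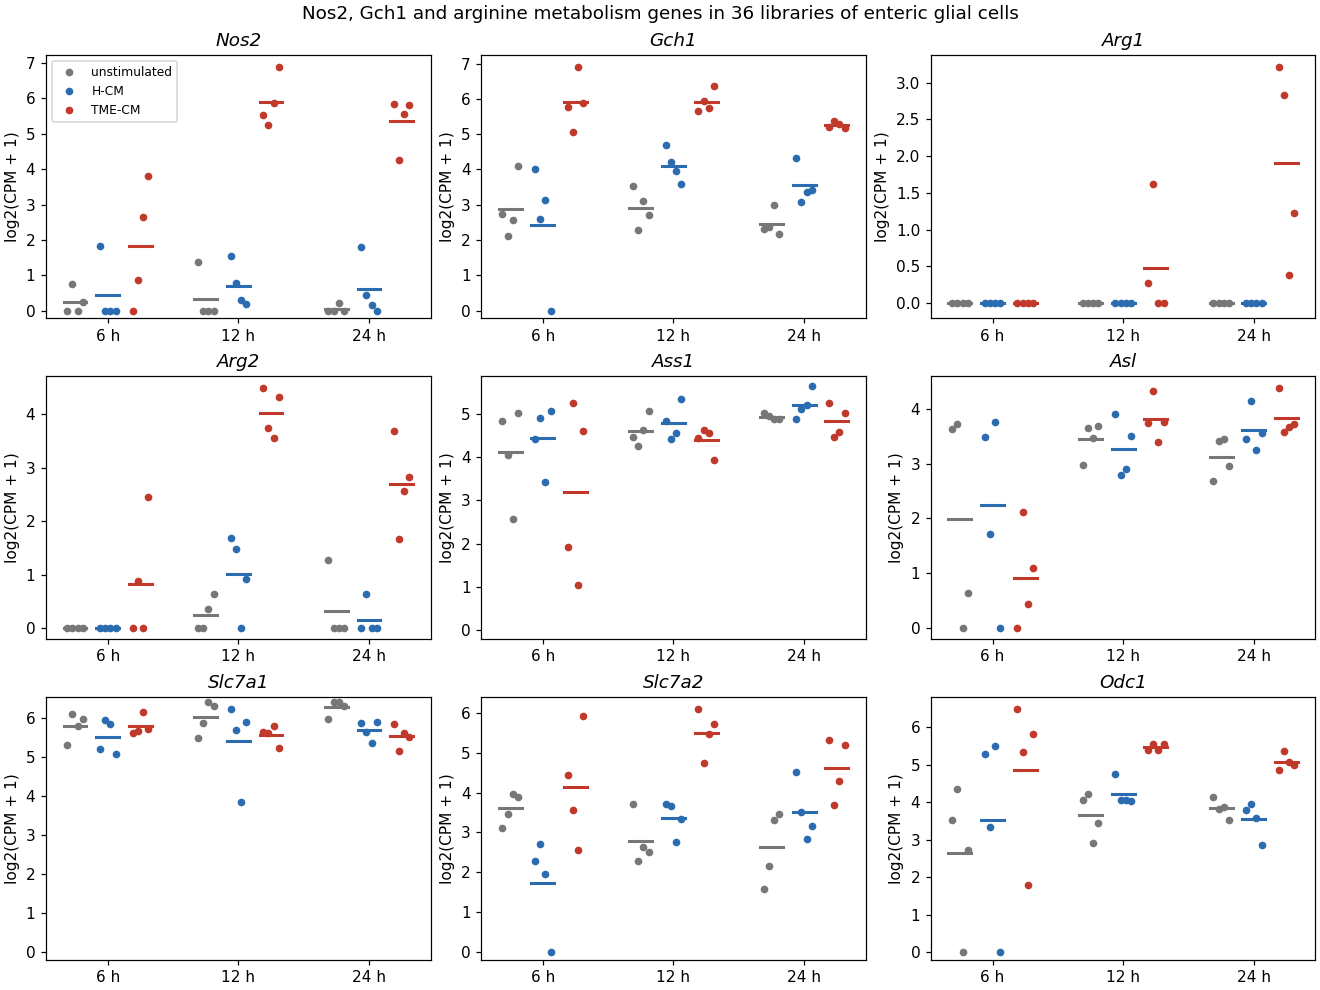
Level of each of the 9 genes in each of the 36 libraries, as log2(CPM + 1) on the y axis, with the 9 groups, ordered by time, on the x axis. Points are libraries and bars are the means of 4 points. The TME-CM points of Nos2, Gch1, Arg2 and Odc1 lie above all others at 12 h and 24 h, while those of Ass1 and Asl overlap with H-CM at each time.

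Gch1 (ENSMUSG00000037580.10, chr14:47153895-47189413, minus strand), which encodes GTP cyclohydrolase, the entry step of tetrahydrobiopterin synthesis, was separated in TME-CM libraries from all others at each time. At 6 h, they held 53.4, 32.6, 118 and 58.1 CPM, against 15.3, 5.02, 7.74 and 0 CPM in H-CM and 5.71, 3.36, 4.88 and 16.2 CPM in unstimulated EGCs. The 0 in H-CM is from replicate 4, with 13518 counts in all, where 1 count comes to 32.7 CPM. A single count there would have lain above the lowest TME-CM library. The separation from H-CM at 6 h thus rests on the other H-CM libraries. The log2 fold change against H-CM of 2.91 ± 0.79 was not called, with an adjusted p of 0.271, at a time when 0.0972% of the genes tested were called. It was called in a model of all 36 libraries (adjusted p = 0.000893). That model takes 1 estimate of the spread of a gene for all times, although libraries of 6 h are shallower and more variable.

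At 12 h, Gch1 stood at 49.5, 60.1, 52.6 and 80.7 CPM in TME-CM and at 25.0, 17.4, 14.5 and 10.9 CPM in H-CM. At 24 h, the TME-CM libraries were close together, with 35.8, 40.1, 38.4 and 35.2 CPM, against 19.0, 7.50, 9.37 and 9.70 CPM in H-CM and 3.99, 4.19, 6.90 and 3.50 CPM in unstimulated EGCs. The 3 groups of 24 h did not overlap. Gch1 rose with TME-CM relative to H-CM by 1.85 ± 0.30 at 12 h (adjusted p = 0.00126) and by 1.71 ± 0.26 at 24 h (adjusted p = 2.3e-04), which are folds of 3.60 and 3.27. The call of 24 h was lost in the model of all 36 libraries (adjusted p = 0.0641).

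Gch1 also differed between H-CM and unstimulated EGCs at 24 h, by 1.28 ± 0.29 on the log2 scale (adjusted p = 0.0184). It was the single gene of the 9 called in this comparison, in which 2.03% of all genes tested were called. This call rests on single libraries: it was lost without unstimulated replicate 2, without unstimulated replicate 4 and without H-CM replicate 1, where the adjusted p was highest at 0.118 and the log2 fold change was 0.90, and it was lost in the model of all 36 libraries (adjusted p = 0.896).

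The transporter genes differed from each other. Slc7a2 (ENSMUSG00000031596.15, chr8:40862396-40922308, plus strand), whose product can be induced in inflammation, held 67.6, 25.7, 43.1 and 51.3 CPM in TME-CM at 12 h. H-CM libraries held 12.1, 11.6, 5.71 and 9.16 CPM, and unstimulated libraries 12.1, 3.85, 5.19 and 4.72 CPM. All TME-CM libraries were above the others, and Slc7a2 rose relative to H-CM by 2.28 ± 0.36 (adjusted p = 0.00109, but 0.052 in the model of all 36 libraries). At 24 h, TME-CM libraries held 39.0, 11.8, 18.6 and 35.8 CPM and overlapped with H-CM, whose replicate 1 held 22.0 CPM. The log2 fold change of 1.19 ± 0.50 was not called (adjusted p = 0.25), but it was called when genes of low counts were not filtered out (adjusted p = 2.13e-04). Against unstimulated EGCs, Slc7a2 rose at 24 h by 2.07 ± 0.51 (adjusted p = 0.0195). The call was lost without unstimulated replicate 2, TME-CM replicate 1 or TME-CM replicate 4 (adjusted p up to 0.066).

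Slc7a1 (ENSMUSG00000041313.14, chr5:148327410-148399904, minus strand), the transporter gene that most cells use, was not called higher at any time. At 24 h, it held 56.1, 34.5, 47.4 and 44.0 CPM in TME-CM, 57.0, 48.3, 40.1 and 57.6 CPM in H-CM and 61.3, 82.6, 83.6 and 78.0 CPM in unstimulated EGCs. TME-CM and H-CM libraries overlapped, and both lay below the unstimulated ones. Slc7a1 fell by 0.74 ± 0.16 on the log2 scale with TME-CM relative to unstimulated EGCs (adjusted p = 0.00371), but not in the model of all 36 libraries (adjusted p = 0.54). The log2 fold change of H-CM against unstimulated EGCs was -0.61 ± 0.16 (adjusted p = 0.0578). With no filter and by DESeq2's Wald test, this fall with H-CM was called (adjusted p down to 0.0186). The comparisons of TME-CM and of H-CM share the 4 unstimulated libraries. Between TME-CM and H-CM, the log2 fold changes were 0.14 at 6 h, -0.06 at 12 h and -0.13 at 24 h, all uncalled.

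The citrulline-recycling genes gave no call. Ass1 (ENSMUSG00000076441.9, chr2:31470207-31520672, plus strand), which encodes argininosuccinate synthase, had 28.1 ± 7.43 CPM in TME-CM, 36.7 ± 8.79 CPM in H-CM and 29.5 ± 1.48 CPM in unstimulated EGCs at 24 h, with overlapping libraries. Its log2 fold changes for TME-CM against H-CM were -0.42 ± 0.97 at 6 h, -0.44 ± 0.28 at 12 h and -0.35 ± 0.20 at 24 h (adjusted p = 0.42). Asl (ENSMUSG00000025533.15, chr5:130011258-130029247, minus strand), which encodes argininosuccinate lyase, had 13.7 ± 4.15, 11.5 ± 3.57 and 7.93 ± 2.22 CPM in the same order, and a log2 fold change of 0.26 ± 0.28 between TME-CM and H-CM at 24 h (adjusted p = 0.743). At 6 h, Asl held 0, 3.34, 0.351 and 1.12 CPM in TME-CM and 10.2, 2.28, 12.6 and 0 CPM in H-CM. That difference was uncalled (log2 fold change -2.77 ± 1.56, adjusted p = 0.883), although the model of all 36 libraries called it lower (adjusted p = 0.0302).

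Arg2 (ENSMUSG00000021125.6, chr12:79130777-79156301, plus strand), the mitochondrial arginase gene, held 21.5, 12.4, 10.7 and 18.9 CPM in TME-CM libraries of 12 h. H-CM libraries held 2.20, 1.79, 0 and 0.886 CPM, and unstimulated ones 0, 0, 0.273 and 0.555 CPM. Arg2 rose relative to H-CM by 3.69 ± 0.70 (adjusted p = 0.00533), a fold of 12.9, with no overlap. In the model of all 36 libraries, the call was lost (adjusted p = 0.278).

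At 24 h, TME-CM libraries held Arg2 at 11.9, 2.18, 4.88 and 6.09 CPM, from 73, 5, 32 and 32 counts. H-CM held 3 counts, all in replicate 2, and unstimulated EGCs 5 counts, all in replicate 1. TME-CM libraries were above all others (two-sided exact permutation p = 0.0286 against H-CM, the smallest that 4 against 4 libraries allow). Arg2 was too low for the filter at 24 h, and the pooled ratio to H-CM was 46.1 (95% interval for counting error 15.5 to 226), or 27.2 without H-CM replicate 3. Without the filter it was called (adjusted p = 8.62e-08). Exons of Arg2 share 285 bases with those of Vti1b on the opposite strand, and no source used here says whether reads were counted by strand. Vti1b stood at 76.2 ± 13.7 CPM in TME-CM and 88.6 ± 3.15 CPM in H-CM at 12 h (log2 fold change -0.22 ± 0.20, adjusted p = 0.775). The part of the shared bases in the counts of Arg2 was not tested.

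Arg1 (ENSMUSG00000019987.9, chr10:24915221-24927484, minus strand), the cytosolic arginase gene, had a count of 0 in all 24 libraries without TME-CM and in all 4 TME-CM libraries of 6 h. At 12 h, TME-CM libraries held 1, 5, 0 and 0 counts. At 24 h, they held 51, 14, 2 and 7 counts, which are 8.29, 6.11, 0.305 and 1.33 CPM. Every TME-CM library of 24 h thus held Arg1, and replicates 1 and 2 held more than replicates 3 and 4. Summed over the libraries, Arg1 was at least 24.0-fold higher than in H-CM, whose count of 0 is taken as 3 counts over the group (exact permutation p = 0.0286). Of the 74 counts, 51 were in TME-CM replicate 1, and the bound was 10.7-fold without it and 14.2-fold without H-CM replicate 3. Arg1 did not pass the filter in any fit per time. Without the filter, it was called at 24 h (adjusted p = 9.69e-06).

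The levels of Arg1 can be set beside the macrophage markers. Among these 12, Lyz2 had the highest mean in TME-CM of 24 h (149 ± 110 CPM), ahead of Itgam (15.5 ± 9.94 CPM). Their sum thus leans mostly on Lyz2. In TME-CM libraries of 24 h, the summed level of the 12 markers was 240, 407, 121 and 79.2 CPM, and at 12 h it was 201, 358, 79.3 and 96.9 CPM. At both times replicates 1 and 2 were above replicates 3 and 4 in this sum and in Arg1, at 12 h from 1 and 5 counts against 0 and 0. At 12 h, replicate 2 held more of both than replicate 1. Within each of these pairs of 24 h, the library with more of the markers held less Arg1, in replicates 3 and 4 from 2 and 7 counts. TME-CM libraries of 6 h held 451, 343, 38.6 and 66.1 CPM of the markers with 0 counts of Arg1. H-CM libraries of 24 h held 241, 382, 142 and 86.7 CPM of the markers with 0 counts of Arg1. Replicates 1 and 2 were above replicates 3 and 4 in this sum in all 3 groups of 12 h and in all 3 groups of 24 h. In TME-CM replicate 2, with the highest sums among the TME-CM libraries of 12 h and of 24 h, Nos2 was lowest, at 37.3 CPM at 12 h and 18.3 CPM at 24 h. In TME-CM replicate 1 of 24 h, with the next highest sum, Nos2 was highest, at 56.4 CPM. In H-CM of 12 h and of 24 h, replicates 1 and 2 were above replicates 3 and 4 in Nos2 as in the sum. In TME-CM of 12 h, replicates 3 and 4 held more Nos2 than replicates 1 and 2. The part of these cells in the Arg1 and Nos2 counts was not tested.

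**Figure D2:**
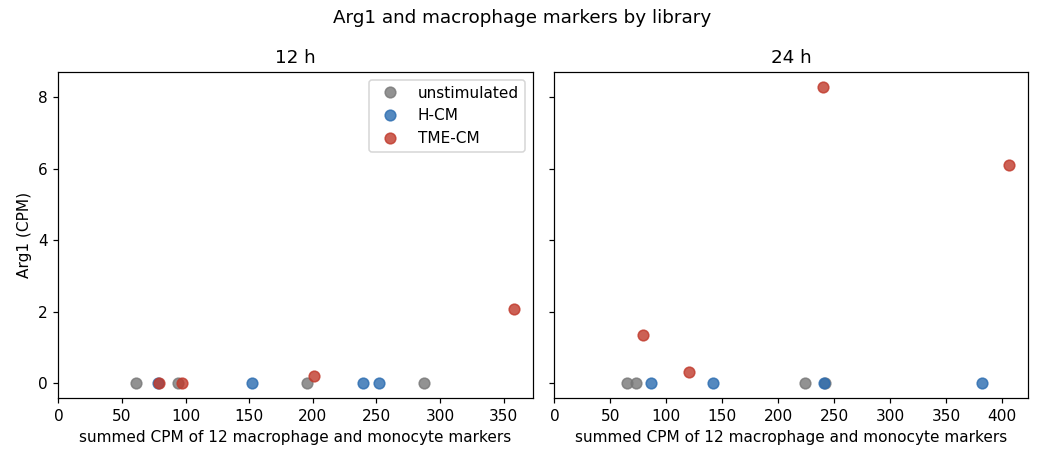
Arg1 (y axis, CPM) against the summed level of 12 macrophage and monocyte markers (x axis, CPM) in each library of 12 h and 24 h, colored by group. At 24 h, the TME-CM libraries with 240 and 407 CPM of the markers hold 8.29 and 6.11 CPM of Arg1, while H-CM libraries with 241 and 382 CPM of the markers lie at 0.

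Odc1 (ENSMUSG00000011179.8, chr12:17544794-17551505, plus strand), which encodes ornithine decarboxylase, held 41.0, 46.0, 40.9 and 46.4 CPM in TME-CM at 12 h, against 25.9, 15.6, 15.7 and 15.4 CPM in H-CM and 15.8, 17.5, 6.56 and 9.85 CPM in unstimulated EGCs. At 24 h, it held 28.1, 40.6, 32.5 and 31.2 CPM in TME-CM, 12.9, 14.5, 11.0 and 6.28 CPM in H-CM and 16.5, 13.1, 13.6 and 10.5 CPM in unstimulated EGCs. TME-CM libraries were above all others at both times. Odc1 rose relative to H-CM by 1.27 ± 0.29 at 12 h (adjusted p = 0.0221) and by 1.50 ± 0.23 at 24 h (adjusted p = 2.01e-04). The call of 12 h was lost without H-CM replicate 2, H-CM replicate 4, TME-CM replicate 1 or TME-CM replicate 4 (adjusted p up to 0.0942). In the model of all 36 libraries both were lost, with adjusted p of 0.72 and 0.463, as were its calls against unstimulated EGCs (0.0769 and 0.473).

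Counted over the 9 genes, 5 of the 8 tested were higher in TME-CM than in H-CM at 12 h (Nos2, Gch1, Arg2, Slc7a2 and Odc1) and 0 were lower, where 1.89% of all genes tested were called and 1.22% were called higher. At 24 h, 3 of the 7 tested were higher (Nos2, Gch1 and Odc1) and 0 were lower, where 5.4% were called and 2.75% were called higher. Nos2 and Arg2 at 12 h, Nos2 at 24 h, and Gch1 and Slc7a2 at 6 h passed the filter on low counts only with the TME-CM libraries, so these genes could be tested only because they were high there. Of the other 6 genes tested at 12 h, 3 were higher, and of the other 6 at 24 h, 2 were. At 6 h, 0 of the 6 tested were called by edgeR. Of the 6, 2 had an unadjusted p under 0.05, as did 562 of all 9256 genes tested. DESeq2's Wald test called 0 and the model of all 36 libraries called 3 (Gch1 and Slc7a2 higher, Asl lower). All TME-CM libraries lay above all H-CM libraries for 1 of the 6 genes tested at 6 h (Gch1), for 5 of 8 at 12 h and for 3 of 7 at 24 h, and for 3.47%, 4.01% and 5.47% of all genes tested at these times. The same held at 24 h for Arg1 and Arg2, which were not tested. At 6 h, H-CM replicate 4 held 13518 counts in all, so its 0 for Gch1 says little.

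Against unstimulated EGCs, 0 of the 6 genes tested were called at 6 h, where 0.454% of all genes were called. An unadjusted p under 0.05 was found for 2 of the 6 and for 573 of all 9256 genes tested. DESeq2's Wald test called 1, Gch1. At 12 h, 5 of the 8 tested were higher (Nos2, Gch1, Arg2, Slc7a2 and Odc1), where 4.41% were called and 2.67% were called higher. At 24 h, of the 7 tested, Nos2, Gch1, Slc7a2 and Odc1 were higher and Slc7a1 was lower, where 9.52% were called, 4.82% higher and 4.7% lower. Without the genes that passed the filter only with the TME-CM libraries, 3 of 6 were higher at 12 h. At 24 h, 3 of the other 6 were higher and 1 was lower. H-CM against unstimulated EGCs gave 0 calls of 6 at 6 h, 0 of them with an unadjusted p under 0.05, and 0% of all genes were called. It gave 0 calls of 8 at 12 h, with 0.403% of all genes called. An unadjusted p under 0.05 was found for 2 of the 8 and for 688 of all 12156 genes tested. DESeq2's Wald test called 1, Gch1, in that comparison. The comparisons of a time share libraries, so they are not independent of each other.

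**Figure D3:**
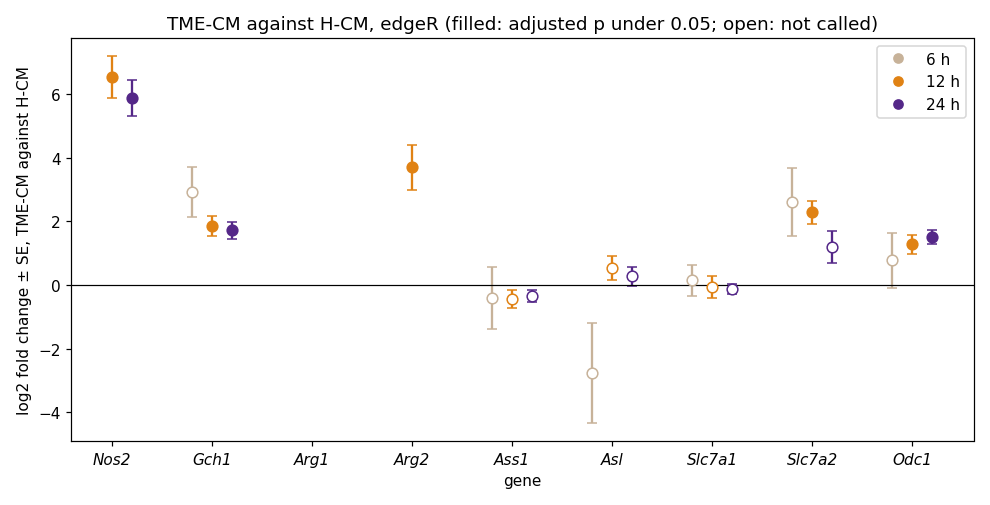
log2 fold change of TME-CM against H-CM (y axis, bars are SE) for each gene (x axis) and time, from edgeR fits of the 12 libraries of each time. Filled points have an adjusted p under 0.05, and genes that did not pass the filter have no point, as Arg1 at each time. Nos2 has the highest values, 6.53 at 12 h and 5.88 at 24 h, while Ass1 and Slc7a1 lie near 0 or below.

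Within TME-CM EGCs, 4 genes had lower levels at 24 h than at 12 h with an unadjusted p under 0.05. Among all 13105 genes tested, 1034 had such an unadjusted p, in either direction. After adjustment, 0 of the 8 were called, where 0.626% of all genes were called. DESeq2's Wald test called 0 as well. The log2 fold changes were -0.83 ± 0.27 for Gch1 (adjusted p = 0.234), -1.44 ± 0.70 for Arg2 (adjusted p = 0.625), -0.96 ± 0.43 for Slc7a2 (adjusted p = 0.561) and -0.54 ± 0.25 for Odc1 (adjusted p = 0.583). In H-CM EGCs, Gch1, Arg2 and Odc1 had lower levels at 24 h in the same way, with 0 of 8 called, as were 0.00763% of all genes. There, 817 of all 13105 genes tested had an unadjusted p under 0.05. In unstimulated EGCs, 0 of 8 were called and 0 had an unadjusted p under 0.05, with 0.0153% of all genes called. The change of the TME-CM against H-CM difference from 12 h to 24 h was not called for any of the 8 genes tested (0 called by edgeR and by DESeq2, 0 with an unadjusted p under 0.05, and 0% of all genes called), with the largest estimates for Arg2 (1.47 ± 1.26) and Slc7a2 (-1.08 ± 0.63).

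Of the other genes of these pathways, 3 of the 38 tested for TME-CM against H-CM were called at 24 h (7.89%, against 5.4% of all genes) and 1 of 36 at 12 h (2.78%, against 1.89%), which is near the share of all genes. Of 17 listed genes of nitric oxide and tetrahydrobiopterin, 14 were tested at 24 h for TME-CM against H-CM, and 1 was higher and 2 were lower. Ddah1, whose product degrades an inhibitor of nitric oxide synthases, was higher in TME-CM (114 ± 8.23 CPM) than in H-CM (84.6 ± 9.14 CPM), by 0.43 ± 0.12 on the log2 scale (adjusted p = 0.0412). Both lay below unstimulated EGCs (144 ± 8.72 CPM) without overlap, with log2 fold changes of -0.77 ± 0.12 for H-CM (adjusted p = 0.001) and -0.34 ± 0.12 for TME-CM (adjusted p = 0.0844, not called). Gucy1a1, a subunit of the guanylate cyclase that senses nitric oxide, fell by 1.33 ± 0.26 (adjusted p = 0.00266), from 29.0 ± 7.37 to 10.9 ± 4.31 CPM, and at 12 h by 1.48 ± 0.31 (adjusted p = 0.0115). Prkg1, the protein kinase downstream of it, fell by 0.86 ± 0.25 at 24 h (adjusted p = 0.0435). Both genes are also used by smooth muscle, whose 6 markers summed to 1853 to 2707 CPM in TME-CM and 3572 to 4390 CPM in H-CM at 24 h, and the part of that change in theirs was not tested.

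For the neuronal synthase gene Nos1, the estimate at 24 h was 0.13 on the log2 scale (adjusted p = 0.88). The other enzymes of tetrahydrobiopterin synthesis were not called, with log2 fold changes of 0.58 for Pts and 0.08 for Spr. Of 19 listed genes of arginine, the urea cycle, creatine and proline, 0 of the 12 tested were called at 24 h and 0 of 11 at 12 h, and Otc and Cps1 of the hepatic urea cycle did not pass the filter. Of 12 polyamine genes, 0 of 12 were called at either time. With 5.4% and 1.89% of all genes called, such counts do not set lists of this size apart. For Srm, which makes spermidine from putrescine, the estimate was 0.41 (adjusted p = 0.104), and for Sms, which makes spermine, it was -0.76 (adjusted p = 0.11). The medians at 24 h were 0.13, 0.17 and 0.06 for these lists, against 0.00 for all genes.

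**Figure D4:**
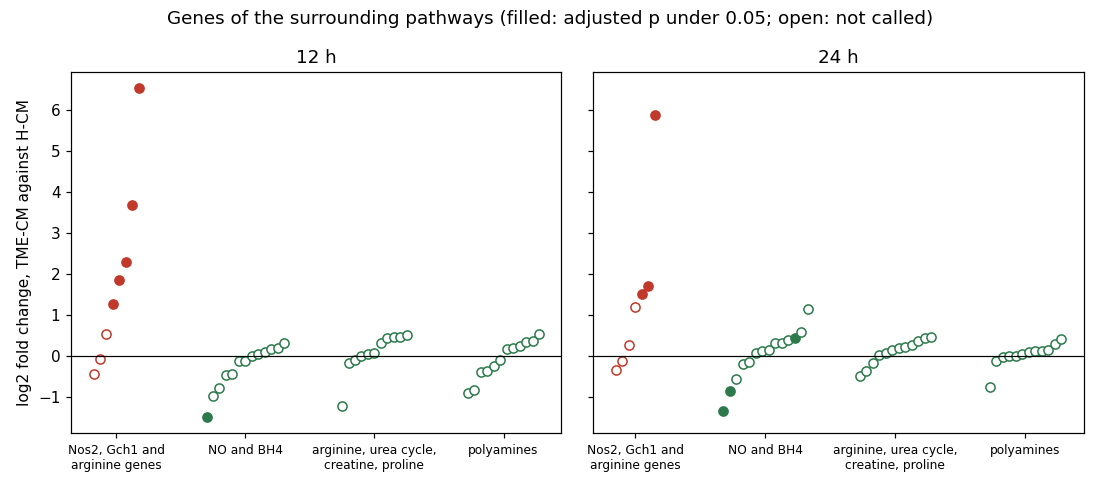
log2 fold change of TME-CM against H-CM (y axis) at 12 h and 24 h for the 9 genes described here (red) and for 3 lists of other pathway genes (green), each point a gene that passed the filter. Filled points have an adjusted p under 0.05. The red points reach 6.53, while the filled green points are Gucy1a1 at 12 h, at -1.48, and Gucy1a1, Prkg1 and Ddah1 at 24 h.

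Across the 24 libraries of 12 h and 24 h, the genes whose log2 CPM was most like that of Nos2 among 10186 genes were Sod2 (Pearson r = 0.979), which encodes the mitochondrial superoxide dismutase, Cx3cl1 (0.961), a chemokine gene, Slpi (0.958), a protease inhibitor gene, Saa1 (0.956), an acute phase gene, and Serpina3f (0.955). The points share libraries and the TME-CM difference, so the values are a description. Sod2 stood at 796 ± 70.7 CPM in TME-CM and 122 ± 51.5 CPM in H-CM at 12 h. By rank correlation, the most like genes were C3, U90926, Pi15, Gm4951 and Map3k8, so the order of single genes depends on the measure. In the same libraries, r with Nos2 was 0.921 for Gch1, 0.888 for Arg2, 0.884 for Slc7a2, 0.879 for Odc1 and 0.491 for Asl, and it was -0.277 for Slc7a1 and -0.422 for Ass1.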

How the data were processed

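The deposited values are raw counts for each gene symbol, without normalization. To make them, the authors trimmed QuantSeq 3′ reads with fastq-mcf, ran HISAT2 against mm10, kept reads with a single place in the genome and assigned these to genes by HT-seq Count (FastQC 0.11.7 and SAMtools 1.5 stand in the submitters' processing notes). Annotation and strand setting are not given in the sources used here. All columns were used.

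Differential expression was computed in edgeR 4.0.16 (R 4.3.3) with filterByExpr (minimum count 10), TMM scaling and the quasi-likelihood test. Each time was fitted on its 12 libraries and changes over time on 24, and p-values were adjusted by Benjamini-Hochberg over all genes tested. The times were fitted apart because libraries of 6 h are shallower and more variable. Alternatives were DESeq2 1.42.0 (size factors or Wald test), no filter, 1 model of all 36 libraries, leaving out Yam1, the replicate number as a block and each library left out. Yam1 is a gene with 11.0% to 48.6% of the counts of a library at 6 h, 12.6% to 39.9% at 12 h and 12.7% to 35.1% at 24 h. In TME-CM of 24 h, it held 35.1% in replicate 2 and 13.7% to 15.1% in the others. Ratios of few counts pool the libraries of a group, with 95% exact binomial intervals, and a count of 0 is taken as 3. After the data were seen, 2 further checks were chosen: these ratios with single libraries left out, and counts of calls without the genes that pass the filter only with TME-CM.

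Positions are from GENCODE M21 (GRCm38). The 9 genes and the other lists were chosen with earlier results of these data known. Also named are the listed pathway genes called for TME-CM against H-CM and the 5 genes most correlated with Nos2 among those averaging 5 CPM or more. Vti1b, Nos1, Pts, Spr, Otc, Cps1, Srm and Sms were picked after their values were seen. Gucy1a1 stands as Gucy1a3 in the table.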

Additional observations from a re-analysis of the deposited data

Results flagged for a closer look

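In groups of 4 libraries, a library stands apart where its gap to the nearest other, as a share of the group's range, exceeds Dixon's critical value at 95%. Of 72 groups of a gene and condition that could be examined, 11 held such a library. In 5 of them the other 3 libraries were at 0, so that the gap is the whole range by construction, and the rate of about 1 in 20 groups that chance gives does not apply to such groups.

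For Nos2, the libraries standing apart were H-CM replicate 1 at 6 h (2.55 CPM from 2 counts, the others at 0), unstimulated replicate 1 at 12 h (1.58 CPM from 3 counts, the others at 0), unstimulated replicate 3 at 24 h (0.160 CPM from 1 count) and H-CM replicate 1 at 24 h (2.49 CPM from 11 counts, the others at 0.366 CPM or below). For Arg1, it was TME-CM replicate 2 at 12 h (2.07 CPM from 5 counts). For Arg2, they were unstimulated replicate 1 (1.43 CPM from 5 counts) and H-CM replicate 2 (0.549 CPM from 3 counts) at 24 h. These 7 rest on 1 to 11 counts.

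Of the genes with more counts, Asl was high in TME-CM replicate 1 at 24 h (19.8 CPM, the others 10.9 to 12.2 CPM), Slc7a1 in TME-CM replicate 3 at 6 h (69.2 CPM, the others 47.6 to 51.0 CPM), Slc7a2 in unstimulated replicate 1 at 12 h (12.1 CPM, the others 3.85 to 5.19 CPM) and Odc1 in H-CM replicate 1 at 12 h (25.9 CPM, the others 15.4 to 15.7 CPM). No cause was tested.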

How the results depend on the processing

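Counts of the 9 genes called moved by over 1.5 times under these settings, and the cause was not tested beyond what each changes. With 1 model of all 36 libraries, TME-CM against H-CM gave 3 calls at 6 h, 2 at 12 h and 1 at 24 h (0, 5 and 3 in the fits per time), TME-CM against unstimulated EGCs 4 at 6 h and 3 at 24 h (0 and 5), and H-CM against unstimulated EGCs 0 at 24 h (1). With no filter, in which more genes can be tested, TME-CM against H-CM gave 6 at 24 h, TME-CM against unstimulated EGCs 1 at 6 h, and H-CM against unstimulated EGCs 1 at 12 h and 3 at 24 h. DESeq2's Wald test gave 1, 1 and 2 in these last 3 comparisons.

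With each library left out in turn, TME-CM against H-CM kept 4 to 5 calls at 12 h and 3 to 4 at 24 h, TME-CM against unstimulated EGCs gave 0 to 1 at 6 h and 4 to 6 at 24 h, and H-CM against unstimulated EGCs 0 to 2 at 24 h. The sign turned for uncalled values near 0: Slc7a1 for TME-CM against H-CM (-0.0032 to 0.30 at 6 h, -0.39 to 0.20 at 12 h) and Ass1 for TME-CM against unstimulated EGCs at 24 h (-0.22 to 0.042). The sign of every called change held.

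With the replicate number as a block, TME-CM against H-CM gave 0, 5 and 3 calls and TME-CM against unstimulated EGCs 0, 5 and 5, in order of time, as without it. Same-numbered libraries did not deviate together throughout (correlations of deviations from the group means between -0.16 and 0.23), so the numbers were not taken as pairs. Of the 8 libraries of unstimulated EGCs and H-CM at 24 h, however, 7 deviated most like the library of the same number in the other group. In the other pairs of groups, 1 to 5 of 8 did. The macrophage marker sums also went with the numbers at 12 h and 24 h. The block, DESeq2's size factors and leaving out Yam1 changed none of the counts of calls by over 1.5 times.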
